A study of Drosophila melanogaster with 20 samples.

Results

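The 5 genes described here act in the female germline of Drosophila melanogaster. 3 of them, mael (maelstrom), zuc (zucchini) and shu (shutdown), work in the piRNA pathway, and 2, c(3)G and c(2)M, encode parts of the synaptonemal complex. They were taken as the spots whose only gene symbol in the platform annotation is one of these names. That gave 10 of the 16896 spots on the array, a duplicate pair for each gene, and 5 of the 2377 genes named by a single symbol.

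piRNAs are short RNAs that guide Piwi proteins to transposon transcripts and so keep transposons silent in germ cells. They are cut from long precursor transcripts, loaded into Piwi proteins with the help of chaperones, and then direct cleavage of transposon RNA or silencing of transposon DNA. The synaptonemal complex is a protein ladder that joins homologous chromosomes along their length during meiotic prophase, and in the fly ovary it forms in the oocyte and a few of its sister cells at the anterior tip of each egg chain. Both processes run in the ovary, 1 of the many organs in the whole flies measured here.

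Whole Oregon-R females, 4 to 10 days after emergence and kept at 16 h light, 8 h dark and 60% humidity, received a 2 mL mist of test solution in 99% ethanol, or of 99% ethanol alone, in a Potter's tower, and RNA was taken 6 h later from pools of about 240 flies. Treated flies received Piper nigrum seed extracted in ethyl acetate at 0.2 mg/mL (called the pepper extract), a mixture of 0.1 mg/mL of that extract and 0.004 mg/mL pyrethrin (the combination), and pyrethrin at 0.04 mg/mL. Each of 20 spotted cDNA arrays compared 1 treated extract with 1 ethanol extract in Cy3 and Cy5. There were 12 treated extracts, 4 per treatment: those of the pepper extract and the combination were hybridised on 2 arrays with the dyes exchanged, and those of pyrethrin on 1 array each, always with the treated RNA in Cy3. Pyrethrin replicates 1 and 2 shared control extract 3, and replicates 4 and 5 shared control extract 4. The ethanol numbers 1 to 4 recur in the array titles of the pepper extract and the combination, and 3 and 4 in those of pyrethrin, while the source names of the controls differ by treatment. Whether a number stands for 1 RNA across treatments is thus not settled, and the fit, the differences between treatments and the permutations below took controls of different treatments as separate. The doses differed between treatments, so a difference between them is no test of an interaction.

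Values are log2 ratios of treated over ethanol-treated flies, with the 2 spots of a gene averaged, the arrays of an exchanged pair averaged, and the pyrethrin arrays corrected by the mean dye effect of the exchanged pairs. The labels do not state the numerator of the deposited ratio. After the mean array of each treatment and dye orientation was subtracted, the partners of an exchanged pair correlated positively across features in 8 of 8 pairs (0.0325 to 0.493), so treated over ethanol is the likely reading. Without that subtraction 6 of the 8 pairs correlated negatively, between -0.226 and 0.293 over all 8. The other reading, Cy5 over Cy3, changed many of the values, and those that moved most under it are given below. Arrays held 13953 to 16853 values, and duplicate spots correlated at 0.172 to 0.728 on them. The lowest of these was an array of pepper extract replicate 4, which is 1 of 2 pepper extract arrays (replicates 3 and 4, treated RNA in Cy5) whose titles name another study. Signal intensities were not used here, so a level per gene cannot be given, and in whole flies fewer germ cells and less RNA per germ cell cannot be told apart.

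None of the 5 genes differed from ethanol after any treatment at an adjusted p under 0.05. In the limma fit over 11526 features, 0 of 5 passed after the pepper extract, 0 of 5 after the combination and 0 of 5 after pyrethrin, where 0%, 0% and 0.0781% of all features passed. At an unadjusted p under 0.05 the count was again 0 of 5 after each treatment, beside 3.24%, 8.67% and 10.3% of all features. The point estimates lay between -0.23 and 0.15, and the widest 95% confidence interval toward higher levels reached 1.41-fold (mael after pyrethrin) and toward lower levels 1.39-fold (zuc after the pepper extract). Few genes kept to one side of ethanol in all 4 extracts of a treatment: below it lay 1 of 5 after the pepper extract (5.7% of all features), 0 of 5 after the combination (6.92%) and 0 of 5 after pyrethrin (9.99%). Above it lay 0 of 5 in each treatment, beside 6.03%, 7.57% and 9.35% of all features. The intervals show the size of change that these arrays could have missed and do not show that the transcripts were unaffected. The dye correction of the pyrethrin arrays entered the fit as a known value. Its own error (SE from 0.0557 in shu to 0.126 in c(3)G, 8 pairs) is in no interval or p. For pyrethrin, the mean of the 3 treatments and differences from pyrethrin, intervals are thus too narrow and p-values too small.

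**Figure D1:**
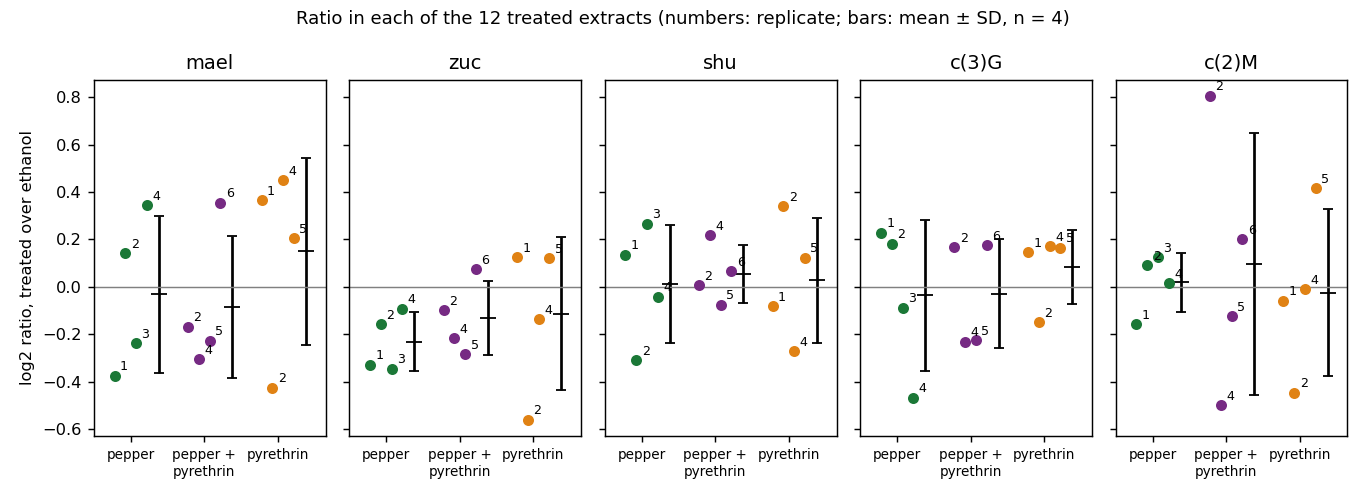
Log2 ratio of treated over ethanol-treated flies for each gene in each of the 12 treated extracts, with the replicate number beside each point and the mean ± SD of 4 extracts as bars. All 4 zuc values after the pepper extract lie below 0, and in every other gene each treatment has values on both sides of 0.

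zuc encodes an endonuclease of the mitochondrial outer membrane that cuts piRNA precursors. After the pepper extract its log2 ratio was -0.33, -0.16, -0.34 and -0.09 in replicates 1 to 4. All 4 extracts lay below ethanol. The mean was -0.23 ± 0.13 (SD, n = 4), a 1.17-fold lower level, with a 95% interval of -0.47 to 0.01 and an adjusted p of 1 in limma. Without the 2 arrays titled for another study it was -0.10. After the combination the values were -0.10, -0.21, -0.28 and 0.08 in replicates 2, 4, 5 and 6, so 3 of 4 were below ethanol. Their mean was -0.13 ± 0.16 (SD, n = 4; limma adjusted p = 0.761). The 0.08 of replicate 6 rested on 1 spot: on its Cy5 array the first zuc spot read 0.95 and the second -0.06. After pyrethrin the extracts divided evenly, at 0.13, -0.56, -0.14 and 0.12 in replicates 1, 2, 4 and 5, with a mean of -0.11 ± 0.32 (SD, n = 4; limma adjusted p = 0.792).

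Over the 3 treatments together, zuc averaged -0.16 (SE 0.0667, 95% interval -0.30 to -0.01), a 1.12-fold lower level, and lay below ethanol in 9 of 12 extracts. Without the 2 arrays titled for another study this mean was -0.10. Its unadjusted p in limma was 0.0329 and its adjusted p 0.702, so it did not pass, and it ranked 539 among the 11526 features by p. It was the only 1 of the 5 genes with an unadjusted p under 0.05 in this comparison, where 6.68% of all features had one. At the adjusted threshold 0 of 5 genes and 0.0954% of features passed.

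The zuc values depended on the dye. With the treated RNA in Cy3, all 4 pepper extract arrays were below 0 (-0.76, -0.42, -0.30 and -0.17 in replicates 1 to 4). With it in Cy5, replicates 1 and 2 were at 0.11 each, replicate 3 at -0.39 and replicate 4 at -0.01. The single pyrethrin arrays, all with treated RNA in Cy3, were below 0 in 4 of 4 before the dye correction, which added 0.20 to each, and in 2 of 4 after it. Under the Cy5 over Cy3 reading the mean of the 3 treatments was 0.17 in place of -0.16.

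mael encodes a protein of the nuage, the perinuclear granules of germ cells, and of the nucleus, and is needed for transcriptional silencing of transposons. After the pepper extract its log2 ratios were -0.37, 0.14, -0.24 and 0.34 in replicates 1 to 4, with a mean of -0.03 ± 0.33 (SD, n = 4). After the combination they were -0.17, -0.31, -0.23 and 0.35 in replicates 2, 4, 5 and 6, with a mean of -0.09 ± 0.30 (SD, n = 4). After pyrethrin they were 0.37, -0.42, 0.45 and 0.21 in replicates 1, 2, 4 and 5, with a mean of 0.15 ± 0.40 (SD, n = 4). Each treatment held extracts on both sides of ethanol, and the ranges of the 3 treatments overlapped. The adjusted p in limma was 1, 0.899 and 0.793 in that order of treatments.

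**Figure D2:**
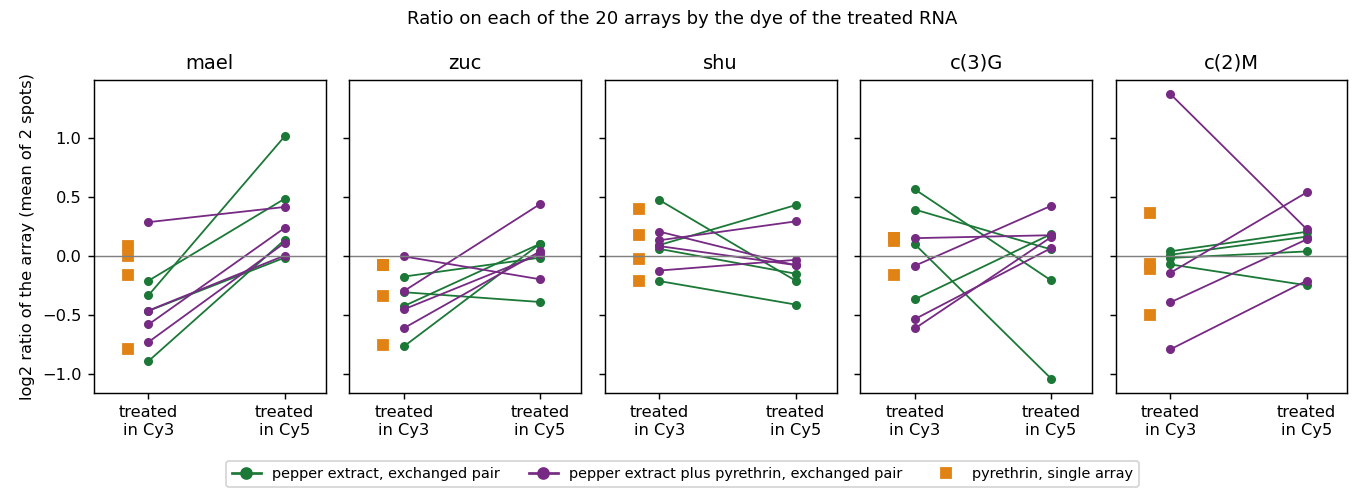
Log2 ratio of each of the 20 arrays, with lines joining the 2 arrays of an exchanged pair and squares for the single pyrethrin arrays, by the dye that carried the treated RNA. All 8 mael lines rise from left to right, and the lines of the other genes cross in both directions.

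With ratios read as treated over ethanol, mael showed the widest dye effect of the 5 genes. In 8 of 8 exchanged pairs its ratio was higher when the treated RNA was in Cy5 than when it was in Cy3, as the plot of arrays by dye shows. For the pepper extract the Cy3 arrays averaged -0.47 and the Cy5 arrays 0.41, and for the combination -0.37 and 0.20. The dye effect, the difference within a pair divided evenly over its arrays, was 0.36 ± 0.19 (SD, 8 pairs), and 7.43% of all features had a larger one. In zuc it was 0.20 and was positive in 6 of 8 pairs, and in shu, c(3)G and c(2)M it lay between -0.06 and 0.05. That of c(2)M, 0.05, was also positive in 6 of 8 pairs. It was lowered by combination replicate 2, at 1.38 in Cy3 and 0.23 in Cy5, where 1 Cy3 spot read 3.71. Under the Cy5 over Cy3 reading the dye effect of a pair is the mean of its arrays, and over the 8 pairs it was then widest in zuc (-0.18) and -0.06 in mael.

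The mael values changed with how the dyes were treated. The pyrethrin mean of 0.15 was -0.21 before the dye correction. Under the Cy5 over Cy3 reading, mael was 0.44 higher after the pepper extract (limma adjusted p = 0.00982) and 0.29 higher over the 3 treatments (limma adjusted p = 0.00739). It was then the only 1 of the 5 genes to pass, beside 19.6% of all features after the pepper extract and 28.4% over the 3 treatments. A dye effect and a treatment effect of mael cannot be told apart without the numerator of the ratio.

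**Figure D3:**
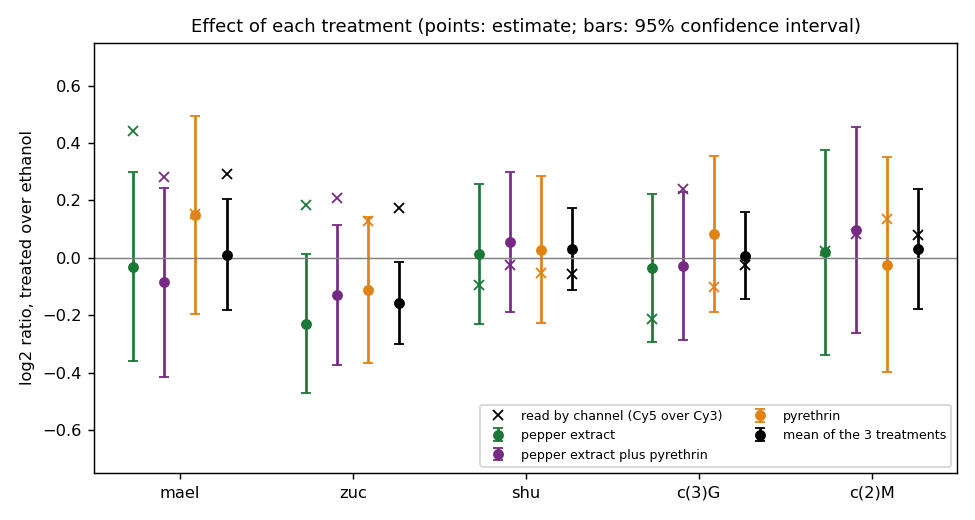
Estimated log2 ratio of treated over ethanol-treated flies for each gene and treatment and for the mean of the 3 treatments, with 95% confidence intervals, and the same estimate under the Cy5 over Cy3 reading as crosses. All intervals include 0 except that of zuc in the mean of the 3 treatments, and the mael cross of the pepper extract lies at 0.44.

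shu encodes an FKBP-type co-chaperone that helps to load piRNAs into Piwi proteins. After the pepper extract its log2 ratios were 0.14, -0.31, 0.27 and -0.04 in replicates 1 to 4, with a mean of 0.01 ± 0.25 (SD, n = 4). After the combination they were 0.01, 0.22, -0.07 and 0.07 in replicates 2, 4, 5 and 6, with a mean of 0.05 ± 0.12 (SD, n = 4). After pyrethrin they were -0.08, 0.34, -0.27 and 0.12 in replicates 1, 2, 4 and 5, with a mean of 0.03 ± 0.26 (SD, n = 4). No treatment moved shu to one side of ethanol in all of its extracts, and the limma adjusted p was 1, 0.912 and 0.955 in the same order. The 95% interval of its mean over the 3 treatments, -0.11 to 0.17, reached from 1.08-fold lower to 1.13-fold higher.

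c(3)G encodes the transverse filament protein that spans the gap between the paired chromosomes. Its log2 ratios after the pepper extract were 0.23, 0.18, -0.09 and -0.47 in replicates 1 to 4, with a mean of -0.04 ± 0.32 (SD, n = 4). After the combination they were 0.17, -0.23, -0.22 and 0.18 in replicates 2, 4, 5 and 6, with a mean of -0.03 ± 0.23 (SD, n = 4). After pyrethrin they were 0.15, -0.15, 0.17 and 0.17 in replicates 1, 2, 4 and 5, with a mean of 0.08 ± 0.15 (SD, n = 4). 3 pyrethrin extracts thus lay close together above ethanol and replicate 2 lay below it. On each pyrethrin array, however, the first c(3)G spot read below 0 and the second above it. For these treatments, in the same order, the limma adjusted p was 1, 0.961 and 0.869. The lowest value, -0.47 in pepper extract replicate 4, was the mean of 0.10 on its Cy3 array and -1.04 on its Cy5 array, 1 of those titled for another study, where 1 spot read -1.79 and its duplicate -0.28. Without the 2 arrays so titled, c(3)G was 0.06 after the pepper extract in place of -0.04. It was -0.21 after the pepper extract and 0.24 after the combination under the Cy5 over Cy3 reading.

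c(2)M encodes a kleisin-like protein of the lateral elements, which run along each chromosome axis. After the pepper extract its log2 ratios lay close together, at -0.16, 0.09, 0.13 and 0.01 in replicates 1 to 4, with a mean of 0.02 ± 0.13 (SD, n = 4). After the combination they were the widest, at 0.80, -0.50, -0.12 and 0.20 in replicates 2, 4, 5 and 6, with a mean of 0.10 ± 0.55 (SD, n = 4). After pyrethrin they were -0.06, -0.44, -0.01 and 0.42 in replicates 1, 2, 4 and 5, with a mean of -0.02 ± 0.35 (SD, n = 4). The limma adjusted p was 1, 0.896 and 0.974. The value of 0.80 rested on 1 spot: on the Cy3 array of combination replicate 2 the first c(2)M spot read 3.71 and the second -0.96. Without that extract the mean after the combination was -0.14 in place of 0.10. Its pair of arrays also entered the dye correction of the pyrethrin arrays. Without it the c(2)M mean after pyrethrin was 0.07 in place of -0.02. That of the 3 treatments was -0.02 in place of 0.03.

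**Figure D4:**
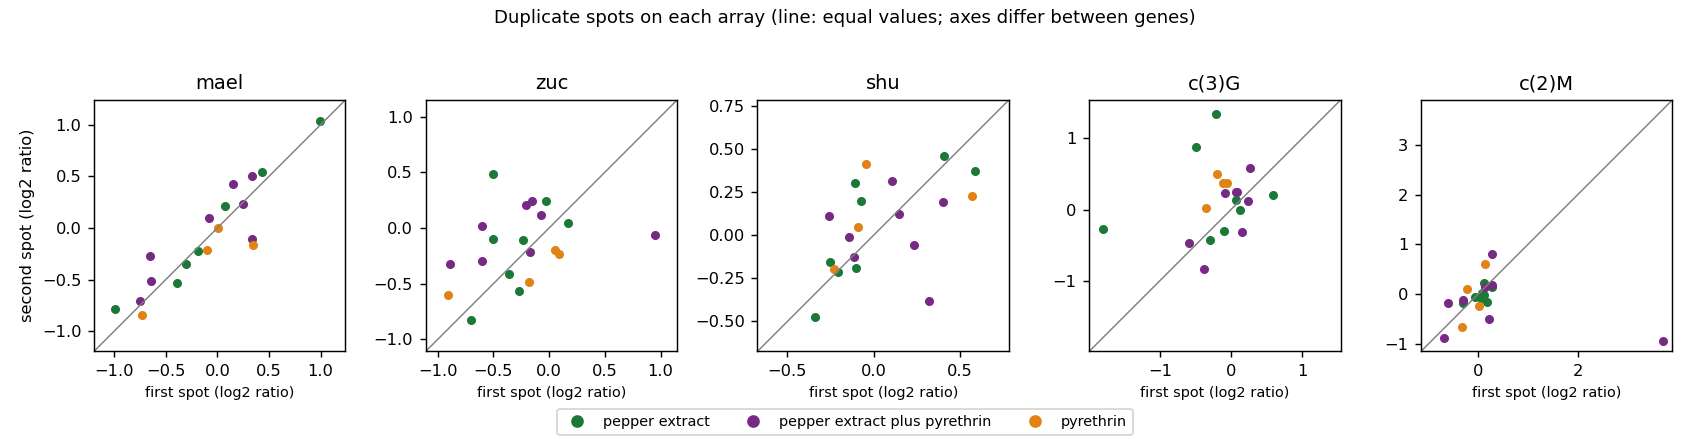
Log2 ratio of the second against the first spot of each gene on each array, with the line of equal values. mael points follow the line, and 1 c(2)M point at 3.71 on the first spot lies far from it.

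Duplicate spots show how closely 2 readings of a gene on 1 array matched, and not how precisely its treatment ratio was measured. After the pepper extract the limma SE was 0.154 for mael, whose spots matched best, and 0.114 for zuc. Over the arrays with both spots, of both dye orientations, duplicate spots correlated at 0.90 for mael (19 arrays). The r was 0.49 for shu, 0.33 for zuc, 0.23 for c(3)G and -0.27 for c(2)M (20 arrays each). Without the array just described the c(2)M spots correlated at 0.61. The median size of the difference between spots was 0.13 for mael, 0.17 for shu, 0.18 for c(2)M, 0.30 for zuc and 0.35 for c(3)G. In zuc and c(3)G it was thus larger than any of the treatment means, and the spots had the same sign on 11 of 20 arrays in each of these genes. After pyrethrin the c(3)G mean was -0.25 from the first spot alone, against 0.08 from the mean of the spots.

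The treatments were then compared with each other, on the same extracts. In limma, 0 of 5 genes differed between the combination and the pepper extract, 0 of 5 between the combination and pyrethrin, and 0 of 5 between pyrethrin and the pepper extract, where 0%, 0% and 0% of all features passed. At an unadjusted p under 0.05 the counts were 0 of 5 beside 4.62%, 12.2% and 5.69% of all features. With ratios read as treated over ethanol, the widest difference was that of mael, which was 0.24 lower after the combination than after pyrethrin, a log2 difference of -0.24 ± 0.22 (SE; 95% interval -0.71 to 0.24, limma adjusted p = 0.708). That difference was 0.13 without the dye correction. The differences of the other 4 genes lay between -0.11 and 0.12, and all their intervals included 0. Under the Cy5 over Cy3 reading the widest was that of c(3)G between the combination and the pepper extract, at 0.45 (SE 0.154, limma adjusted p = 0.151) in place of 0.01.

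Whether the genes moved together was read over the 12 extracts, where the values of 1 extract share their arrays. Of the 10 pairs of genes, mael and zuc, with ratios read as treated over ethanol, had the highest correlation, with Pearson r = 0.79 (permutation p = 0.00207, adjusted over the 10 pairs 0.0207) and Spearman rho = 0.83 (permutation p = 0.00162, adjusted 0.0162). Both were lowest in pyrethrin replicate 2 and had the same sign in 9 of 12 extracts. Without the 2 extracts farthest from the mael median, r was 0.84, and with each treatment's mean subtracted it was 0.83.

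Other genes correlated with mael as closely as zuc did. Among 1930 genes measured in all 12 extracts and ordered by r with mael, zuc ranked 62, and the 5th and 95th percentiles of r with mael were -0.76 and 0.76. The adjusted p rose to 0.118 (r = 0.75) without pyrethrin replicate 2, to 0.0555 (r = 0.76) without pyrethrin replicate 1 and to 0.136 (r = 0.82) without the 4 pyrethrin extracts, which share 2 control extracts. The adjusted p of rho rose to 0.0733 without pyrethrin replicate 2, 0.0575 without pepper extract replicate 1 and 0.102 without the 4 pyrethrin extracts. It was 0.0552 with each treatment's mean subtracted and 0.108 without the dye correction. Under the Cy5 over Cy3 reading r was 0.43 (permutation p adjusted over the 10 pairs 0.404) and rho 0.45 (adjusted 0.281), and the highest r of the 10 pairs was then that of zuc with c(2)M, at 0.66 (adjusted 0.134) and rho = 0.50 (adjusted 0.281).

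**Figure D5:**
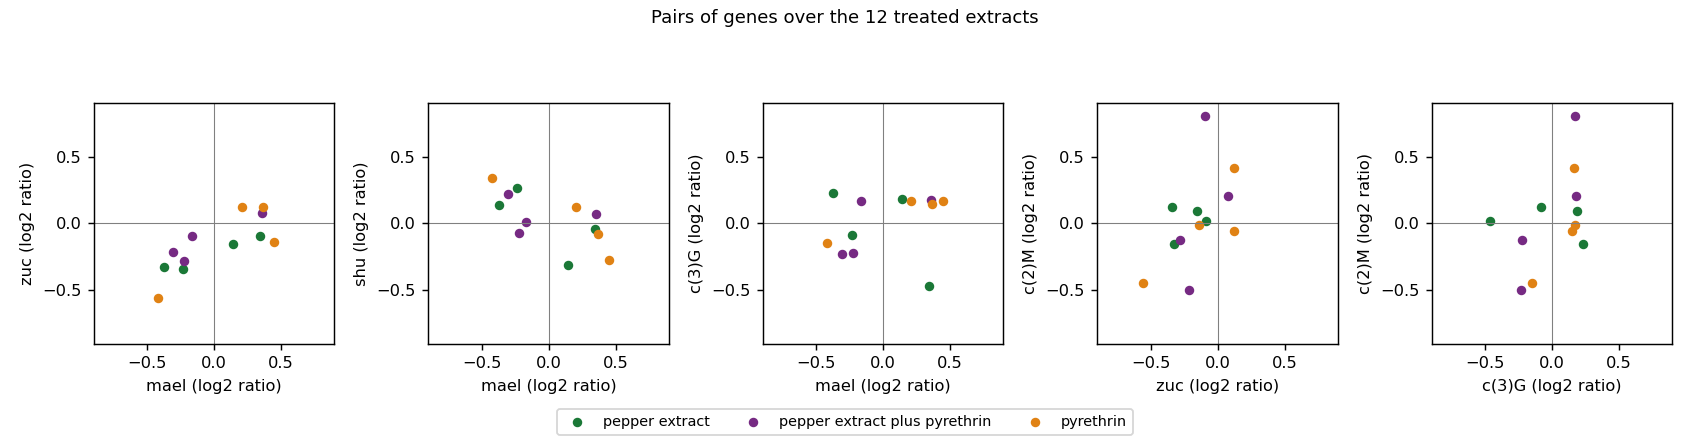
Log2 ratios of 5 pairs of genes over the 12 treated extracts, coloured by treatment. mael and zuc rise together (r = 0.79), mael and shu run in opposite directions (r = -0.65), and the pairs with a synaptonemal complex gene scatter more widely.

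The third piRNA gene, shu, correlated negatively with the other two. mael and shu correlated at r = -0.65 (permutation p = 0.0239, adjusted over the 10 pairs 0.12) and rho = -0.73 (permutation p = 0.00969, adjusted 0.0484), with the same sign in 3 of 12 extracts. Among the 1930 genes ordered by r with mael, shu ranked 1720, and the 5th percentile of r was -0.76, so other genes ran against mael more strongly. Without the 2 extracts farthest from the mael median, pyrethrin replicates 2 and 4, the r of mael and shu was -0.45. zuc and shu correlated at r = -0.43 (permutation p adjusted 0.332) and rho = -0.51 (adjusted 0.234). The rho of mael and shu lost the threshold in 8 of 12 cases with 1 extract left out, where its adjusted p ran from 0.027 to 0.181. It also did without the dye correction (0.108), under the Cy5 over Cy3 reading (0.281), with each treatment's mean subtracted (0.128) and without the 4 pyrethrin extracts (0.575).

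The synaptonemal complex genes correlated with each other at r = 0.45 (permutation p adjusted 0.332) and rho = 0.34 (adjusted 0.473), and had the same sign in 7 of 12 extracts. Among the 1930 genes ranked by r with c(3)G, c(2)M was at 193. Between a piRNA gene and a synaptonemal complex gene, 0 of 6 pairs passed. The closest was zuc with c(2)M, at r = 0.53 (permutation p adjusted 0.245) and rho = 0.51 (adjusted 0.234), the pair whose r was 0.66 under the Cy5 over Cy3 reading. The r of the other 5 lay between -0.28 and 0.37 and their rho between -0.27 and 0.46. Without combination replicate 2, whose c(2)M value rested on 1 spot, c(2)M correlated at r = 0.62 with mael (permutation p adjusted 0.111). It was then 0.65 with zuc (adjusted 0.105) and -0.32 with shu (adjusted 0.424). The rho of these pairs were 0.53, 0.50 and -0.25. The mean of the 3 piRNA genes and the mean of the 2 synaptonemal complex genes correlated at r = 0.37 and rho = 0.52, given as a description, and r was 0.54 without combination replicate 2.

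By extract, the means of the 2 gene groups had the same sign in 7 of 12. After the pepper extract they had opposite signs in 4 of 4 extracts: in replicates 1, 2 and 3 the piRNA mean was below ethanol (-0.19, -0.11 and -0.11) and the synaptonemal complex mean above it (0.04, 0.14 and 0.02), and in replicate 4 the order was turned (0.07 and -0.23). After pyrethrin they had the same sign in 4 of 4 extracts. These counts changed under the Cy5 over Cy3 reading, where the signs were opposite in 3 of 4 pepper extract replicates (replicate 3 had 0.12 and 0.18) and the same in 2 of 4 pyrethrin extracts and in 6 of 12 in all. Sizes of 0.02 and 0.04 lie well within the difference between duplicate spots. As read here, all 5 genes were above ethanol in combination replicate 6 and pyrethrin replicate 5, and all 5 were below it in combination replicate 5. In combination replicate 6 the zuc value, 0.08, rested on 1 spot at 0.95 whose duplicate read -0.06. The shares of all features on each side in these extracts are not given here, so these counts are a description only.

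Pyrethrin replicate 2 stood at the edge of its treatment in every gene. It held the lowest value of the 4 pyrethrin extracts for mael (-0.42), zuc (-0.56), c(3)G (-0.15) and c(2)M (-0.44) and the highest for shu (0.34). Its values of mael and zuc were the lowest, and that of shu the highest, of all 12 extracts. Pyrethrin replicate 1, measured against the same control extract, was at 0.37 for mael and 0.13 for zuc. Without replicate 2 the pyrethrin mean of zuc was 0.04 in place of -0.11, and that of mael 0.34 in place of 0.15. What set this extract apart was not tested.

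The genes most alike to each member over the 12 extracts were named by the 3 highest Pearson r. For mael they were tai (0.93), CG5969 (0.92) and tth (0.91), and for zuc CG8958 (0.92), CG9922 (0.91) and CG14712 (0.91). For shu they were Papst2 (0.86), CG1622 (0.86) and NT5E-2 (0.85). For c(3)G they were Obp56d (0.85), CG2656 (0.83) and Fmr1 (0.82), and for c(2)M Zif (0.84), CG5854 (0.82) and PMCA (0.81). These are the highest of 1930 values each and share the arrays of the member, so they describe these extracts only.

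Few other genes of the same processes could be identified by symbol, and 11078 of the 16896 spots carried none. Listed genes not counted as tested, here and in the lists that follow, may still lie among the unnamed features. The values of the genes identified are given as treated over ethanol only. Their directions rest on that reading. Of 36 other piRNA pathway genes listed, 3 were tested: Gasz, which sits with zuc on the mitochondrial surface, Hen1, which methylates piRNA ends, and tapas, which encodes a Tudor domain protein of the nuage. In limma 0 of 3 passed after any treatment. After pyrethrin all 3 lay below ethanol, at -0.20 for Gasz, -0.12 for Hen1 and -0.12 for tapas, with a median of -0.12 beside -0.01 over all features. Their medians were 0.01 after the pepper extract and 0.02 after the combination.

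Of 47 other meiotic genes listed, 4 were tested (cona, mei-9, SMC1 and Msh6), and 0 of 4 passed after any treatment in limma. cona, which encodes a central part of the synaptonemal complex, was -0.07 after the pepper extract (3 extracts), -0.06 after the combination and -0.15 after pyrethrin. The lowest unadjusted p in this list was that of Msh6, a mismatch repair gene, at -0.26 after pyrethrin (limma adjusted p = 0.444) and -0.23 after the combination (limma adjusted p = 0.572). After pyrethrin all 4 lay below ethanol with a median of -0.11, where 51.4% of all features lay below it.

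Of 41 other germ cell and ovary genes listed, 6 were tested (yl, png, plu, exu, pum and Sxl), and 0 of 6 passed after any treatment in limma. Their median was -0.04 after the pepper extract, and it was -0.004 with the combination and -0.01 with pyrethrin. The genes with the smallest p were plu, needed for the first embryonic divisions, at -0.56 after the pepper extract in 3 extracts (limma adjusted p = 1), yl, the yolk protein receptor of the oocyte, at -0.29 after the combination (adjusted p = 0.541) and the translational repressor pum at -0.32 after pyrethrin (adjusted p = 0.428). Of 19 eggshell and yolk genes listed, 0 matched a tested feature with a single gene symbol. Only 2169 of the 11526 features tested had a symbol, so such genes may lie among the unnamed ones. The amount of ovary in the flies was thus not followed here.

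Markers of the other sex were read because the flies were labelled female. Of 45 testis and male accessory gland genes listed, 7 were tested, with a median of 0.005 after the pepper extract, of -0.08 with the combination and of 0.15 with pyrethrin. Above ethanol lay 4 of 7, 1 of 7 and 5 of 7, beside medians over all features of 0.004, 0.015 and -0.006. After pyrethrin 51.4% of all features lay below ethanol. Over the pyrethrin extracts the median of the 7 ran from -0.06 in replicate 2 to 0.25 in replicate 5. 1 of them passed: ocn, a gene of the testis, was 1.05 higher after pyrethrin (log2, limma adjusted p = 0.0429), where 0.0781% of all features passed. It was above ethanol in 4 of 4 extracts. This p, too, leaves out the error of the dye correction. In the fit of 20 arrays with a dye term, without the extracts of control extract 4 and without pyrethrin replicate 4, 0 features passed after pyrethrin, ocn included. The part of male tissue in the pyrethrin values of the 5 germline genes was not tested.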

How the data were processed

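The deposited values are log2 ratios per spot; the base was inferred from their range, and neither the authors' normalization nor the numerator is stated in the sources used. Per the labels, each array held a treated and an ethanol extract, and groups came from the source names. Here each array's median (within 0.0365 of 0) was subtracted. Spots with the same single symbol were averaged (5666 of 16896 spots; 152 carried several symbols and 11078 none), exchanged arrays were averaged, and single arrays were corrected by the mean dye effect of at least 4 exchanged pairs. Features measured in at least 3 of 4 extracts of every treatment were tested, 11526 in all, of which 2169 had a symbol. All 5 genes passed this filter. limma 3.58.1 (R 4.3.3, statmod 1.5.0) fitted 12 extracts with array weights and with a random block for shared controls (correlation 0.0583), with Benjamini-Hochberg adjustment over all features and a threshold of 0.05. The median SE over features was 0.124 for the exchanged treatments and 0.129 for pyrethrin. Correlations used 100000 permutations of the extracts, two-sided. All 12 extracts were exchanged freely, although the pyrethrin extracts shared controls and carried the same dye correction for a gene. The permutation p-values leave that sharing out. The number of arrays limits the precision. Nothing in the labels says whether extracts came from separate rearings, so p-values measure the spread between these extracts.

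The members, the other gene lists and the tests were chosen with earlier results of these data known. The text names all 5 members, the 3 genes most alike to each, and from the other lists those tested and those with the smallest p. Sequences and promoters were not used here.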

Additional observations from a re-analysis of the deposited data

Results flagged for a closer look

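In pyrethrin replicate 2 the log2 ratio of c(3)G was -0.147, while the other 3 pyrethrin extracts lay between 0.15 and 0.17. Its gap to the nearest of them, over the whole range of the 4 extracts, was above the 95% critical value of Dixon's test. This was 1 of 15 groups of 4 extracts so tested, and chance flags about 1 in 20 groups. On the array of that extract the first c(3)G spot read -0.35 and the second 0.02. The spots differed in sign on the other pyrethrin arrays too, and by more. They read -0.12 and 0.38 in replicate 1, -0.06 and 0.37 in replicate 4 and -0.20 and 0.50 in replicate 5. The values that lay close together were thus means of spots that disagreed. Without replicate 2 the pyrethrin mean of c(3)G was 0.16 in place of 0.08, and the limma test did not pass in either case.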

How the results depend on the processing

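The count of genes past the threshold was 0 of 5 in each of the 7 comparisons under the 25 alternatives run for treatments and the 27 run for differences, except under the Cy5 over Cy3 reading, where it was 1 after the pepper extract and 1 in the mean of the 3 treatments (mael in both). Since most values lay near 0, their signs often changed: 142 of 905 alternative values of single genes had the other sign, and the causes were not tested. zuc in the mean of the 3 treatments ran from -0.19 to -0.11 with 1 extract left out at a time. Its sign changed only under the Cy5 over Cy3 reading. Fits without a pyrethrin extract were run without the control block, whose correlation could then not be estimated. No sign changed with features measured in all 12 extracts, in a fit of the 20 arrays with a dye term, without centring, without the control block or without the stricter filter on missing values.

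Under the Cy5 over Cy3 reading, the values that changed sign were mael 0.44, zuc 0.18 and shu -0.094 after the pepper extract, mael 0.28, zuc 0.21, shu -0.025 and c(3)G 0.24 after the combination, zuc 0.13, shu -0.054, c(3)G -0.10 and c(2)M 0.13 after pyrethrin and zuc 0.17, shu -0.058 and c(3)G -0.025 in the mean of the 3 treatments. Of the differences, mael 0.13, zuc 0.079, c(3)G 0.34 and c(2)M -0.053 for the combination minus pyrethrin and mael -0.29, zuc -0.056 and c(2)M 0.11 for pyrethrin minus the pepper extract changed sign. Without the dye correction, the values that changed sign were mael -0.21 after pyrethrin and mael -0.11 in the mean of the 3 treatments. Of the differences, mael 0.13, zuc 0.18 and shu -0.033 for the combination minus pyrethrin and mael -0.18 and zuc -0.078 for pyrethrin minus the pepper extract changed sign. With the first spot alone, the values that changed sign were mael 0.0025 and shu -0.011 after the pepper extract, zuc 0.0034 and c(3)G -0.25 after pyrethrin and c(3)G -0.18 in the mean of the 3 treatments. The difference that changed sign was c(3)G 0.22 for the combination minus pyrethrin. With the second spot alone, the values that changed sign were c(3)G 0.19 and c(2)M -0.015 after the pepper extract, c(2)M -0.18 after the combination, c(2)M 0.20 after pyrethrin and mael -0.0065 and c(2)M -0.0016 in the mean of the 3 treatments. Of the differences, shu -0.015, c(3)G -0.22 and c(2)M -0.17 for the combination minus the pepper extract, zuc 0.19, shu -0.017 and c(2)M -0.38 for the combination minus pyrethrin and zuc -0.072 and c(2)M 0.21 for pyrethrin minus the pepper extract changed sign. With arrays scaled to the same spread, the values that changed sign were mael 0.0067 and shu -0.0059 after the pepper extract and c(3)G 0.0021 after the combination. The difference that changed sign was zuc 0.049 for the combination minus pyrethrin. Without the 2 arrays titled for another study, the values that changed sign were shu -0.046 and c(3)G 0.063 after the pepper extract, shu -0.0025 after pyrethrin and mael -0.018 in the mean of the 3 treatments. Of the differences, mael 0.0025, zuc -0.025 and c(3)G -0.091 for the combination minus the pepper extract changed sign. Without the extracts of control extract 3, the values that changed sign were shu -0.074 and c(2)M 0.20 after pyrethrin and shu -0.0021 in the mean of the 3 treatments. Of the differences, c(2)M -0.11 for the combination minus pyrethrin and shu -0.087 and c(2)M 0.18 for pyrethrin minus the pepper extract changed sign. Without the extracts of control extract 4, the values that changed sign were mael -0.029 and c(3)G -0.00100 after pyrethrin and mael -0.049, c(3)G -0.022 and c(2)M -0.045 in the mean of the 3 treatments. Of the differences, zuc 0.087 and shu -0.075 for the combination minus pyrethrin changed sign. With only arrays that had treated RNA in Cy3, the values that changed sign were mael 0.10, shu -0.028 and c(3)G -0.44 for the combination minus the pepper extract, shu -0.0087 for the combination minus pyrethrin and shu -0.020 and c(3)G -0.11 for pyrethrin minus the pepper extract. Of the correlations, mael with c(3)G turned to -0.11, shu with c(3)G to 0.19 and shu with c(2)M to 0.0044 under the Cy5 over Cy3 reading. Without the 4 pyrethrin extracts, an alternative chosen after the data were seen, mael with c(3)G turned to -0.11, and 0 of 6 pairs between the gene groups passed under each alternative run.

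With each extract left out in turn, sign changes occurred for the following values. mael ran from -0.16 to 0.083 after the pepper extract and from -0.046 to 0.075 in the mean of the 3 treatments. mael ran from -0.20 to 0.070 for the combination minus the pepper extract. zuc ran from -0.19 to 0.037 after pyrethrin. zuc ran from -0.17 to 0.062 for the combination minus pyrethrin. shu ran from -0.071 to 0.12 after the pepper extract, from -1.3e-06 to 0.097 after the combination, from -0.076 to 0.13 after pyrethrin and from -0.0072 to 0.069 in the mean of the 3 treatments. shu ran from -0.066 to 0.13 for the combination minus the pepper extract, from -0.073 to 0.13 for the combination minus pyrethrin and from -0.089 to 0.11 for pyrethrin minus the pepper extract. c(3)G ran from -0.12 to 0.11 after the pepper extract, from -0.096 to 0.040 after the combination and from -0.027 to 0.082 in the mean of the 3 treatments. c(3)G ran from -0.14 to 0.096 for the combination minus the pepper extract and from -0.19 to 0.0072 for the combination minus pyrethrin. c(2)M ran from -0.017 to 0.077 after the pepper extract, from -0.14 to 0.29 after the combination, from -0.17 to 0.12 after pyrethrin and from -0.018 to 0.085 in the mean of the 3 treatments. c(2)M ran from -0.16 to 0.28 for the combination minus the pepper extract, from -0.21 to 0.35 for the combination minus pyrethrin and from -0.19 to 0.098 for pyrethrin minus the pepper extract.

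The replicate numbers in the labels are shared between treatments but nothing states that they pair the extracts. Extracts of the same number correlated at -0.33 to 0.15 (8 pairs, median -0.15), against a median of 0.064 for the 40 other pairs. In a fit with the replicate number as a block, 0 of 5 genes passed in the 3 differences, and zuc (-0.016), c(3)G (-0.0045) and c(2)M (-0.0058) changed sign for the combination minus the pepper extract.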
